A study of Mus musculus with 10 samples.

Results

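The skeletal myosin heavy chain cluster on mouse chromosome 11 was examined as all peaks, in the 7 deposited peak lists, that share at least 1 bp with the mm9 window chr11:66870000-67270000. The window is defined by its position and not by peak values, and holds, from low to high position, Myh3, Myh2, Myh1, Myh4, Myh8 and Myh13. It contained 23 of the 241128 peaks of the series: 8 MyoD peaks, 13 Myf5 peaks, 1 acetylated histone H4 (H4Ac) peak and 1 mock peak. All cells were mouse embryonic fibroblasts of the genotype MyoD-/-; Myf5-/-, so no group had an endogenous source of either factor. They carried lentiviral MyoD, lentiviral Myf5 or, as the control, lentiviral GFP, were harvested after 20 h in differentiation medium, which replaced the growth medium at 24 h from infection. Factor chromatin immunoprecipitation (ChIP) used crosslinked chromatin from cells with MyoD or with Myf5, and the matching mocks used the same antibodies in cells with GFP. H4Ac was measured in native chromatin of cells with MyoD, with Myf5 and with GFP. No source used here names the promoter of the lentiviruses or the number of cell isolates. Each group had 1 list (the MyoD and Myf5 titles name 2 replicates together), so there was no replicate error, no test between groups was possible, and sequencing depth is unknown. Intervals below are exact (Clopper-Pearson) 95% binomial intervals that cover counting error only.

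Sarcomeric myosin heavy chains are the motor proteins of the muscle thick filament, and the genes of the cluster are used at different stages and in different fibre types. Myh3 encodes the embryonic form and Myh8 the perinatal form, Myh2, Myh1 and Myh4 encode the fast forms IIa, IIx and IIb of adult fibres, and Myh13 encodes the form of extraocular muscle. The myogenic factors MyoD and Myf5 belong to the basic helix-loop-helix family and bind the E-box CANNTG together with E proteins. Acetylation of histone H4 is a mark of active chromatin. Transcription of the 6 genes was not analysed here.

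The promoters of the cluster are shown because they are the sequences through which the member genes can be compared, and because the peaks have no sequence in the sources used here. RefSeq promoter entries (GRCm38.p6) matched all 6 genes, each on the plus strand of chromosome 11. The peaks are in mm9 and no position was converted, so no peak was assigned to a promoter. The 250 bases before the annotated start are given 5′ to 3′ for Myh3, the gene at the low end of the cluster, for Myh4, the only member with the E-box CAGCTG, and for Myh2, which had no E-box. Capitals mark each match to CANNTG, a motif that reads the same on both strands.
Myh3: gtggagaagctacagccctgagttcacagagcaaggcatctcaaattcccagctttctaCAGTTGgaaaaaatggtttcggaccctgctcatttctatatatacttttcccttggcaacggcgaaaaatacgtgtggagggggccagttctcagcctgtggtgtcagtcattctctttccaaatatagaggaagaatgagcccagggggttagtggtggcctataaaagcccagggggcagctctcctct
Myh4: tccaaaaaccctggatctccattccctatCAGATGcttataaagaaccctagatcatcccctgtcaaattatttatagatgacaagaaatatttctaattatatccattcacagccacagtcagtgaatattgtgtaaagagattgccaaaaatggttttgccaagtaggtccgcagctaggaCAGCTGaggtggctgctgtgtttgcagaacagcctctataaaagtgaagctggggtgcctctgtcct
Myh2: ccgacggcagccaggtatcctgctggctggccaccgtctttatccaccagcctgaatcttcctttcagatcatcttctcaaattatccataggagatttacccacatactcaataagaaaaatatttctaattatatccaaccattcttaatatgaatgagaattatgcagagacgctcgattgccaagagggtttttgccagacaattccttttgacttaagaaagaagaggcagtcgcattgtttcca

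E-boxes matched in these promoters about as often as in others. CANNTG matched in 4 of the 6 promoters, against 66.2% of 32851 promoter entries of the same length. Myh3 had 1 match, CAGTTG, from 191 to 186 bases before the start. Myh4 had a CAGATG from 221 to 216 bases and a CAGCTG from 67 to 62 bases before the start. Myh8 had a CAAATG, and Myh13 had a CACTTG and a CAACTG. Myh2 and Myh1 had no match in this window. CAGCTG matched in 1 of the 6 promoters, against 13.0% of all, and CAGGTG or its reverse complement CACCTG in 0 of 6, against 17.2%. Similarity of another kind was found by comparing the promoters with each other, a search made after the sequences had been seen. Myh2, Myh1, Myh4 and Myh8, the 4 genes of the cluster's middle, shared the 14 bases ttctaattatatcc, and these were found on either strand in 4 of the 32851 promoter entries, those 4 alone. The shared bases lay 54 to 41 bases before the Myh8 start, 125 to 112 before the Myh2 start, 158 to 145 before the Myh4 start and 160 to 147 before the Myh1 start. They contain no E-box, and Myh3 and Myh13 lacked them. The bases were taken as the longest run shared by those 4 genes, so their presence in the 4 promoters was fixed by the search. How often other runs of 14 bases recur among promoters was not counted, so the count does not measure how particular this run is.

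MyoD and Myf5 bound the cluster at about the usual density, but unevenly along it. The window held 8 MyoD peaks, and at least 8 were present in 38.2% of 6423 windows of the same length laid end to end along the chromosomes (mean 7.01). It held 13 Myf5 peaks, and at least 13 were present in 47.1% of those windows (mean 14.6). Of the 4 segments of 100 kb that make up the window, the one at the Myh3 end held 6 of the 8 MyoD peaks and 9 of the 13 Myf5 peaks. The other segments held, in order, 1, 0 and 1 MyoD peaks and 1, 1 and 2 Myf5 peaks. How often other windows were as uneven was not counted. MyoD peaks covered 1.22% of the window and Myf5 peaks 2.71%.

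**Figure D1:**
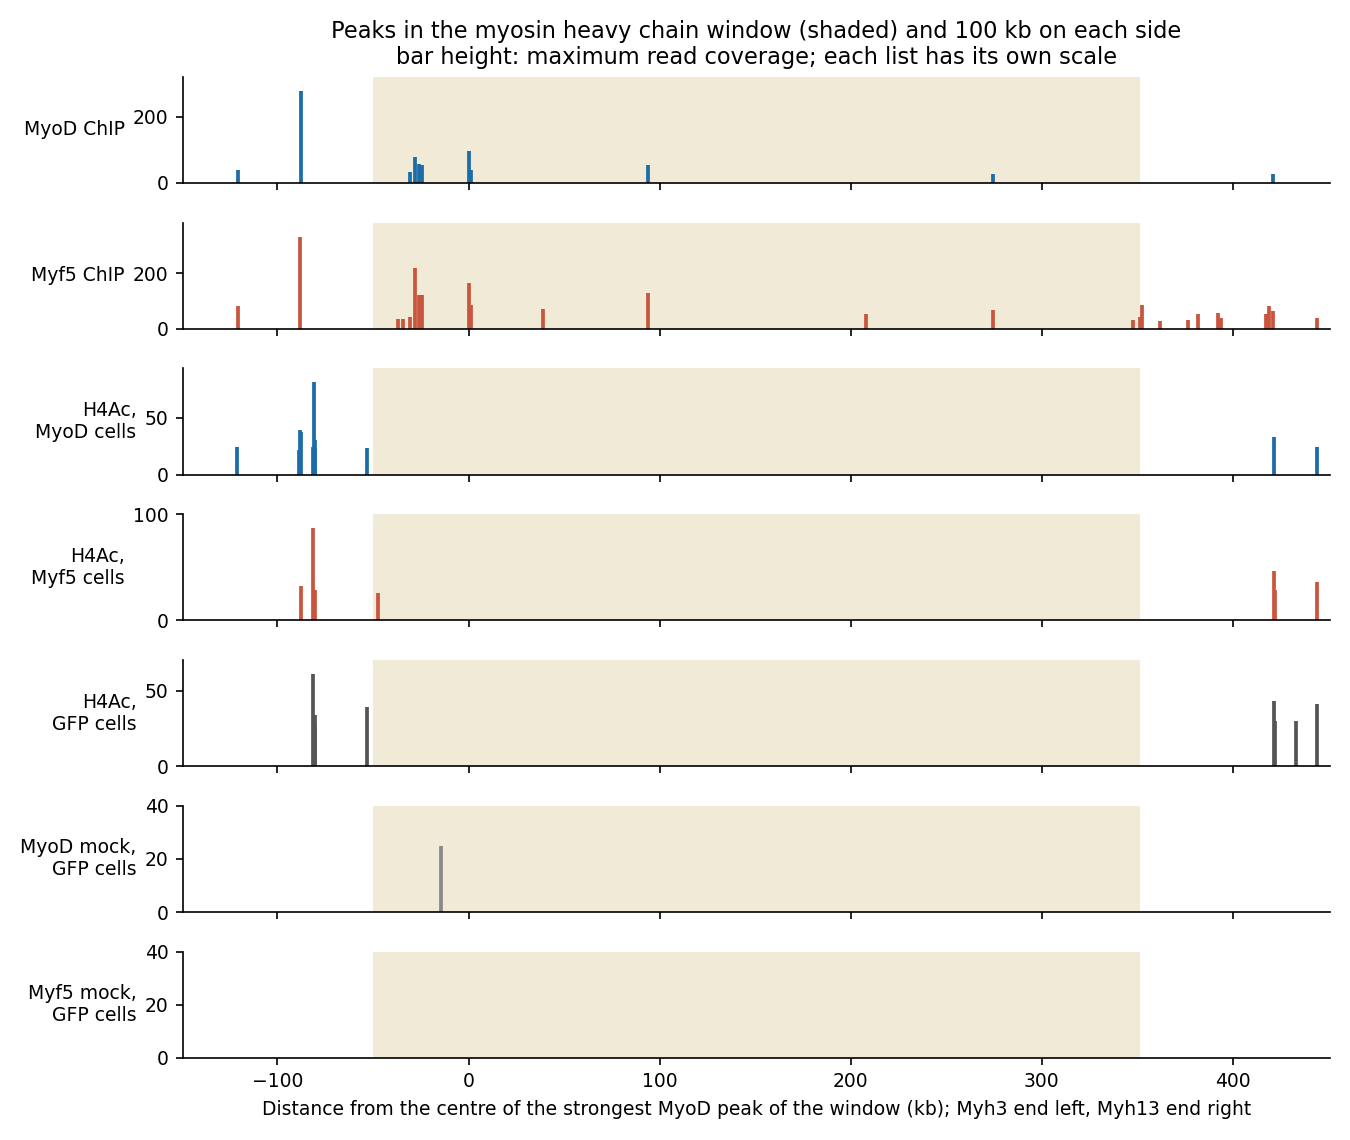
Peaks along the myosin heavy chain window (shaded) and 100 kb on each side, as distance in kb from the centre of the strongest MyoD peak of the window, with the Myh3 end left. Each row is 1 deposited list and bar height is the authors' maximum coverage in reads on that list's own scale. The MyoD row has 6 of its 8 window peaks at the left end, and the 3 H4Ac rows hold 1 peak within the shading.

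At the Myh3 end, 6 consecutive MyoD peaks lay within 32.5 kb. Runs of 6 consecutive MyoD peaks spanned a median of 146 kb over the whole list, and 3.76% of 44915 runs were as short. The length and place of the run were set by the crowded end itself. The share is for unselected runs, so it overstates how rare the run is. The run consisted of a lower group of 4 peaks within 6.69 kb and a higher group of 2 peaks within 2.09 kb, separated by 23.7 kb without a MyoD peak. Myf5 had 6 peaks in the same run, 1 on each MyoD peak, with 23.8 kb free of Myf5 peaks between the groups. Another 2 Myf5 peaks lay below the lower group, at 66882297 to 66882763 and at 66884587 to 66885236, with no MyoD peak.

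Beyond that end, binding thinned out. After the MyoD peak at 67012807 to 67013452, the next 180 kb of the window had none. This stretch was picked as the longest of the 7 between MyoD peaks of the window. Stretches that long made up 5.31% of the single stretches between neighbouring MyoD peaks of the list, whose median was 17.6 kb. The longest of the 12 stretches between Myf5 peaks of the window began at the same site and ran for 113 kb. In the Myf5 list, 3.10% of the single stretches were as long (median 8.15 kb). Both shares are for single stretches, so they overstate how rare a longest stretch is. The distance between the midpoints of neighbouring MyoD peaks was 1.30 kb at its smallest, with a median of 2.43 kb in the window and 18.4 kb over the list. Only 4 of these 7 distances of the window were under the list median, all at the Myh3 end, so the median describes that end. For Myf5 the median distance was 14.2 kb in the window and 9.01 kb over the list. Gene borders in mm9 were not used here, so the genes within the sparse part are not named.

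Peak strength was that of ordinary sites, and no MyoD peak of the cluster was among the strongest 10% of its list. Strength was taken as the authors' maximum read coverage and ranked within a list only, because no scaling to depth is stated. A percentile is the share of a list's peaks with a lower coverage, ties counted as equal parts above and below. The lists differ in length (45015 MyoD and 93787 Myf5 peaks), so 2 percentiles at a shared site do not compare the binding of the factors. Of the 8 MyoD peaks, 5 were above the list's median coverage of 49, as were 49.8% of all MyoD peaks, and their median percentile was 55.4. Of the 13 Myf5 peaks, 8 were above the list's median of 55, as were 49.9% of all Myf5 peaks, and their median percentile was 60.9.

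The strongest MyoD peak of the window was the lower member of the higher group, at 66918880 to 66919747. Its coverage was 97, rank 8915 of 45015 and percentile 80.05, with an authors' p-value of 1.60e-25. The Myf5 peak on the same site, at 66919034 to 66919840, had a coverage of 164, rank 13604 of 93787 and percentile 85.4. It was the second of the window in the Myf5 list. The strongest Myf5 peak lay in the lower group at 66890748 to 66891578, with a coverage of 218, rank 9169, percentile 90.2 and an authors' p-value of 4.62e-63. It was the only peak of either factor in the cluster past the 90th percentile of its list. The MyoD peak there, at 66890956 to 66891369, had a coverage of 79, rank 11978 and percentile 73.1, and the midpoints of the 2 peaks were 0.5 bp apart.

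The other 2 strong sites of the lower group stood next to each other. The first had a MyoD peak of coverage 57 at 66893252 to 66893827, percentile 58.4, and a Myf5 peak of coverage 122 and width 1362 bp, percentile 78.8. The second had a MyoD peak of coverage 55 at 66894520 to 66895167, percentile 56.5, and a Myf5 peak of coverage 121, percentile 78.6. These neighbours were thus nearly equal to each other within each list. The lowest site of the group, with a MyoD peak at 66888481 to 66888978, was weak in both lists, with a MyoD coverage of 33 (percentile 18.1) and a Myf5 coverage of 41 (percentile 31.7). The second peak of the higher group, at 66920417 to 66920965, had a MyoD coverage of 39 (percentile 33.1) and a Myf5 coverage of 85 (percentile 68.2).

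Outside the Myh3 end, 2 sites had peaks of both factors. The site at 67012807 to 67013452, alone in the second segment, had a MyoD coverage of 53 (percentile 54.3) and a Myf5 coverage of 130 (percentile 80.4), the third highest Myf5 coverage of the window. The site at 67193666 to 67194339 was the weakest MyoD peak, with a coverage of 28 against a cutoff of 27 and percentile 1.91. The Myf5 peak there, at 67193304 to 67194249, had a coverage of 66 and percentile 58.4. Its midpoint was 226 bp from that of the MyoD peak, the largest offset of the 8 pairs.

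**Figure D2:**
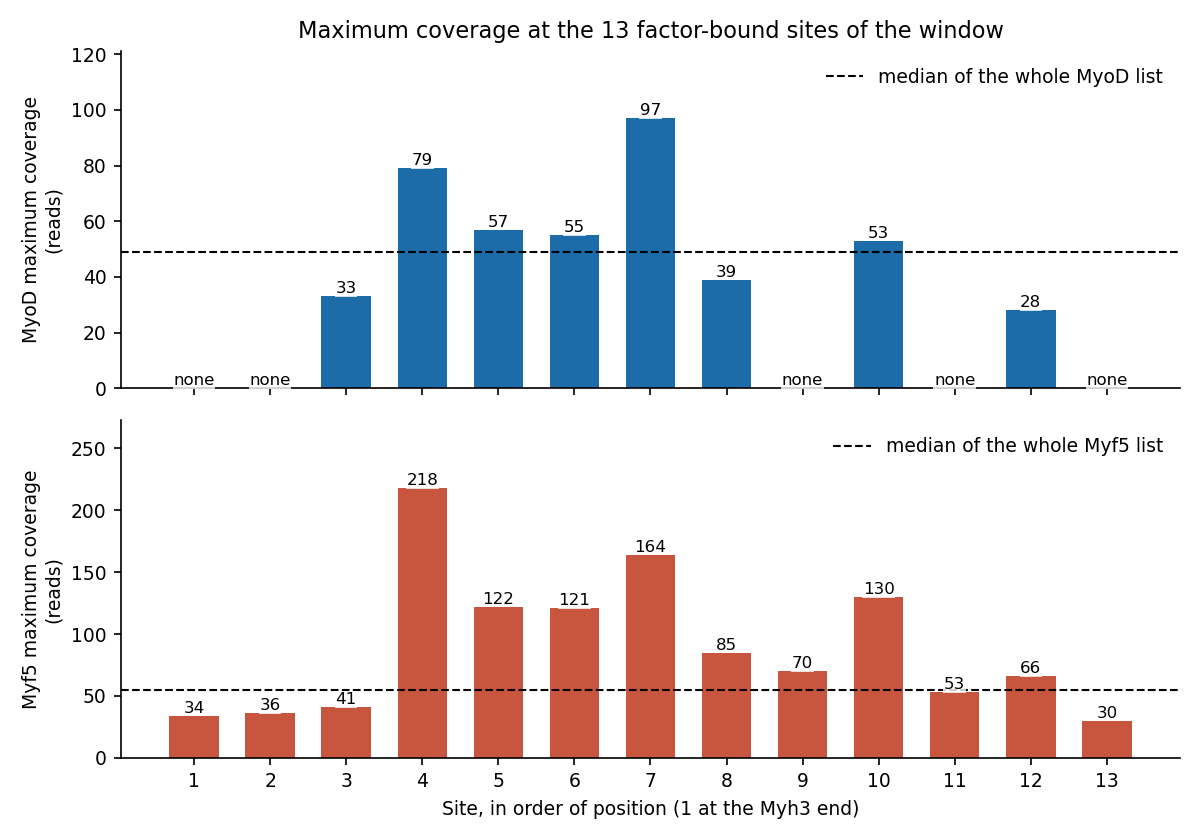
Authors' maximum coverage in reads at the 13 factor-bound sites of the window, numbered by position from the Myh3 end, for MyoD (top) and Myf5 (bottom), 1 list each. Dashed lines are the medians of the whole lists, 49 for MyoD and 55 for Myf5. Sites 4 and 7 are the highest in both lists, and 5 sites have a Myf5 peak and no MyoD peak.

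Every MyoD peak of the cluster lay on a Myf5 peak, 8 of 8 (63.1% to 100%), as did 97.5% of the MyoD peaks of the whole list. In the other direction, 8 of 13 Myf5 peaks (61.5%, 31.6% to 86.1%) lay on a MyoD peak, and 45.9% of all Myf5 peaks did so, a value inside that interval. Each shared site joined 1 peak of each list, with 414 to 714 bp in common. The 2 lists ordered the 8 sites much alike: Spearman's correlation of the coverages was 0.881, given as a description over 8 sites of 1 region. No value over all shared sites is given, so whether this is particular to the cluster was not tested. The 2 highest sites of each list were the same, in the opposite order, and the 2 lowest sites likewise.

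Myf5 peaks without a MyoD peak numbered 5 and were mostly among the weaker ones. The strongest of them, at 66958044 to 66958745, had a coverage of 70 and percentile 60.9, and the nearest MyoD peak was 37079 bp away. The one at 67126895 to 67128230, the sole factor peak in the third segment, had a coverage of 53 and percentile 47.6. The 2 below the lower group had coverages of 34 and 36. The last, at 67266603 to 67267150 at the Myh13 end, had a coverage of 30 against a cutoff of 29. The 8 shared Myf5 peaks had coverages of 41 to 218, so the 2 classes overlapped. Coverages of the 2 classes over the whole Myf5 list were not compared, so whether this is particular to the cluster was not tested.

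Other properties of the peaks were near those of their lists, apart from base composition. Of the 8 MyoD peaks, 7 fell in the authors' class of 45 to 50% GC, which held 33.2% of all MyoD peaks, and 1 fell in the class of 40 to 45% GC. Of the 13 Myf5 peaks, 8 fell in the class of 45 to 50% GC, which held 34.4% of all Myf5 peaks, 4 in that of 40 to 45% GC and 1 in that of 50 to 55% GC. Peaks on shared sites are the same stretch of DNA, so the classes of the 2 lists are not separate observations. The median width was 611 bp for MyoD peaks of the window and 672 bp in the list, and 807 bp for Myf5 peaks of the window and 757 bp in the list. Control coverage was 2 to 8 at the MyoD peaks and 7 to 12 at the Myf5 peaks, with list medians of 5 and 11.

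The mocks gave 1 peak in the window. The MyoD mock had a peak at 66904850 to 66905289, with a coverage of 25 against a cutoff of 19. It lay in the space between the lower and the higher group, 9683 bp from the nearest MyoD peak and 9580 bp from the nearest Myf5 peak. The Myf5 mock had none.

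H4Ac was nearly absent from the cluster in all 3 cell populations. The lists from cells with MyoD and from cells with GFP held no H4Ac peak in the window, and the list from cells with Myf5 held 1. That peak lay at 66872033 to 66872201, at the Myh3 end of the window. It was 169 bp wide, with a coverage of 26 against a cutoff of 24 (percentile 17.2 of its list), and 10096 bp from the nearest Myf5 peak. A peak just above its cutoff in 1 list, without a replicate, does not show a difference from the other 2 populations. Windows of the same length with no H4Ac peak were common: 33% in cells with MyoD and 34.1% in cells with GFP, and 40.5% held at most 1 in cells with Myf5.

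Among windows with the cluster's own number of factor peaks, most held more H4Ac peaks than it did. Of 282 windows with 8 MyoD peaks, 6.38% had no H4Ac peak in cells with MyoD, where the median was 7 peaks (quartiles 4 and 9). In cells with GFP, 8.87% of these windows had none (median 6). Of 142 windows with 13 Myf5 peaks, 22.5% had at most 1 H4Ac peak in cells with Myf5 (median 4, quartiles 2 and 7), and 12% had none in cells with GFP (median 4). These shares are a description and not a test.

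**Figure D3:**
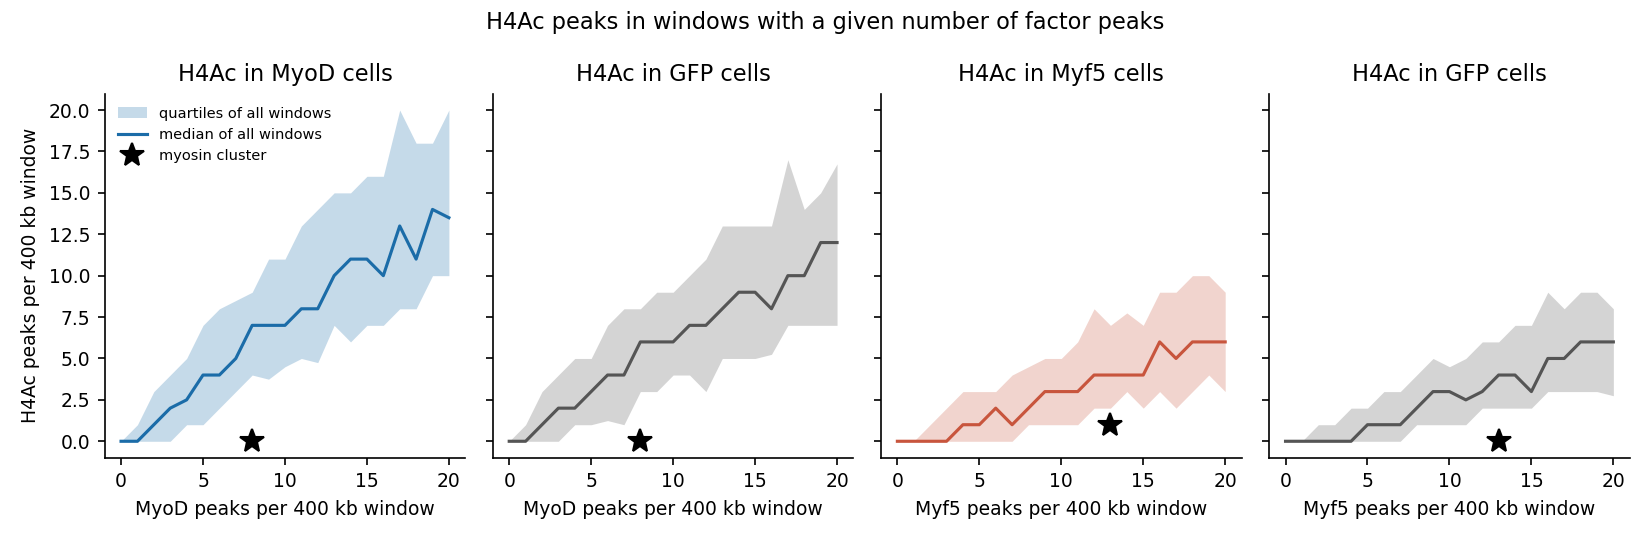
H4Ac peaks per 400 kb window (vertical axis) against the number of MyoD or Myf5 peaks in the window (horizontal axis), over 6423 windows of the genome. Lines are medians and bands the quartiles of the windows, and the star is the myosin cluster. The star lies at 0 H4Ac peaks for 8 MyoD peaks, where the median is 7 in cells with MyoD and 6 in cells with GFP, and at 1 for 13 Myf5 peaks in cells with Myf5, where the median is 4.

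No factor peak of the cluster overlapped an H4Ac peak. In cells with MyoD and with GFP this follows from the absence of H4Ac peaks in the window and is not a second result. In cells with Myf5, only 1 H4Ac peak could have overlapped. Of the 8 MyoD peaks, 0 (0% to 36.9%) had one in cells with MyoD, in cells with Myf5 or in cells with GFP, against 18.6%, 15.1% and 14.4% of all MyoD peaks. Of the 13 Myf5 peaks, 0 (0% to 24.7%) had one in the same 3 populations, against 13.6%, 11.9% and 11.6% of all Myf5 peaks. Each list share lies within the interval of the cluster, so with 8 and 13 peaks a lower share than usual was not detectable. The intervals also treat the peaks as independent, although 6 of the 8 MyoD peaks lay within 32.5 kb. Among MyoD peaks with coverages and GC classes like those of the cluster, 15.8% overlapped H4Ac in cells with MyoD and 13.5% in cells with GFP.

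By the median, the nearest H4Ac peak lay farther from the cluster's sites than from the sites of the whole lists. This follows largely from the near absence of H4Ac peaks in the window and is not a separate result. Single Myf5 peaks at the Myh3 end were nearer than the list median. Among MyoD peaks this held only for H4Ac in cells with Myf5, where the smallest distance was 16.3 kb. From the MyoD peaks, the nearest H4Ac peak in cells with MyoD was 22.4 to 147 kb away (median 40.6 kb), against a median of 14.0 kb over the MyoD list, where 27.5% of the peaks were at least 40.6 kb away. From the Myf5 peaks, the nearest H4Ac peak in cells with Myf5 was 10.1 to 212 kb away (median 46.8 kb), against a median of 19.4 kb over the Myf5 list, where 28.9% were at least 46.8 kb away. The lowest 4 Myf5 peaks lay 10096, 12386, 16063 and 18547 bp from an H4Ac peak of cells with Myf5, nearer than that list median. From the MyoD peaks to H4Ac in cells with Myf5 the median was 34.5 kb, against 17.6 kb over the MyoD list, where 34.6% were at least as far. To H4Ac in cells with GFP, the median was 40.6 kb from the MyoD peaks, against 18.3 kb over the list (32.1% at least as far), and 52.9 kb from the Myf5 peaks, against 20.3 kb over the list (27.5% at least as far).

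The H4Ac-free stretch around the cluster was nearly the same in the 3 populations. It measured 474.3 kb in cells with MyoD (66866063 to 67340370), 468.2 kb in cells with Myf5 (66872202 to 67340362) and 474.3 kb in cells with GFP (66866090 to 67340377). Stretches that long made up 2.70% of those between H4Ac peaks with MyoD, 3.15% with Myf5 and 3.31% with GFP. With MyoD and with GFP it had to exceed 400 kb, because the window held no H4Ac peak. These shares count stretches and not bases, and 33% (MyoD) and 34.1% (GFP) of windows of the same length held no H4Ac peak. The stretch ended on the high side at an H4Ac peak present in all 3 lists, with coverages of 33 (MyoD), 47 (Myf5) and 43 (GFP). On the low side, cells with MyoD and cells with GFP shared a border peak 3.94 and 3.91 kb below the window, with coverages of 23 against a cutoff of 22 and 39 against a cutoff of 26. In the RefSeq gene order of GRCm38, the protein-coding neighbours are Sco1 on the Myh3 side and Gas7 on the Myh13 side. Neither border peak was assigned to a gene.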

How the data were processed

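ChIP sequencing peak lists were used for 7 of 10 samples, and the 3 input samples were not analysed here. The submitters' processing notes name CASAVA 1.8.2, BWA 0.7.5 and, without a role, the builds mm9 and hg19. For the peak caller, the joining of replicates and the H4Ac control, no source used here gives a method. The coverage (signal) of each peak, its cutoff and its p-value are the authors', per the file headers. Cutoffs are set per GC class, so whether a weak site is listed depends on them. Control p-values, as deposited, exceed 1 in places and were held as a score, unused. The negative control coverage of 1 peak was treated as missing. Positions were read as mm9, since peaks on chromosome 1 lie past the last GRCm38 gene. Peaks overlap if they share at least 1 bp. Windows of the cluster's length were laid end to end from the first to the last peak of each chromosome. The window, the lists and the comparisons were chosen with earlier results of these data known. Peaks were named by this rule: all in the window for MyoD, H4Ac and mock lists, the 10 strongest Myf5 peaks, and the strongest without the other factor. The 3 weakest Myf5 peaks were named after their values were seen. Overlap and window counts were tested on simulated peaks. Software was matplotlib 3.10.9, scipy 1.17.1, pandas 2.3.3, numpy 2.4.6 and Python 3.11.15.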

Additional observations from a re-analysis of the deposited data

How the results depend on the processing

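No paired analysis was possible because each group had 1 list. Of 49 alternatives tried over 21 results, 35 left the value within 1.5 times (counts), the counting interval (shares) or 1 SD between peaks (percentiles), and the others follow. In the stronger part of each list (its upper 50%), the window held 5 MyoD and 8 Myf5 peaks, and with the Myf5 list cut to the length of the MyoD list, 8 Myf5 peaks, of which 87.5% lay on a MyoD peak. With the window widened by 100 kb on each side, it held 26 Myf5 peaks and 11 (MyoD), 7 (Myf5) and 8 (GFP) H4Ac peaks. Narrowed by 50 kb on each side, it held 3 MyoD and 5 Myf5 peaks, 0 H4Ac peaks in cells with Myf5 and 0 MyoD mock peaks, because the crowded Myh3 end was left out. At 1.5 times the cutoff, the H4Ac peak of cells with Myf5 was lost, leaving 0. With centres within 100 bp required, 62.5% of MyoD peaks had a Myf5 peak. The share of Myf5 peaks with a MyoD peak was then 38.5%, which stayed within the counting interval and is among the 35. The absence of H4Ac at factor peaks held within 500 bp, but this could not change it, because the nearest H4Ac peak was 10096 bp away. These alternatives are among the 35. A grid of windows shifted by 200 kb, added after seeing the data, gave 5.65%, 8.87%, 18.7% and 7.91% for the 4 shares of equally bound windows with as little H4Ac. Depth, which is unknown, limits the absence of weak peaks.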

Other observations

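The 3 sites of the flanking 400 kb with the highest MyoD coverage, chosen after their values were seen, exceeded every MyoD peak of the cluster and differed in H4Ac. The highest lay 38.2 kb below the window on chromosome 11, with a MyoD peak at 66830982 to 66831835 of coverage 279 (percentile 97.3) and a Myf5 peak at 66830727 to 66831900 of coverage 333 (percentile 95.2). The MyoD peak overlapped 2 H4Ac peaks in cells with MyoD (highest coverage 39 against a cutoff of 22). It overlapped 1 in cells with Myf5 (coverage 32 against a cutoff of 27) and none in cells with GFP. Each population had 1 list, so the difference between them was not tested. The other 2 sites lay above the window and overlapped no H4Ac peak in any population: the MyoD peak at 67371224 to 67372203 had a coverage of 109 (percentile 83.3) on a Myf5 peak of coverage 245, and the one at 67402187 to 67403020 had a coverage of 107 (percentile 82.8) on a Myf5 peak of coverage 283. The 400 kb above the window held 9 MyoD and 34 Myf5 peaks, and H4Ac peaks numbered 11 in cells with MyoD, 9 in cells with Myf5 and 14 in cells with GFP. Of those 9 MyoD peaks, 3, 2 and 2 overlapped an H4Ac peak in cells with MyoD, Myf5 and GFP, against 18.6%, 15.1% and 14.4% of all MyoD peaks. Of the 34 Myf5 peaks, 6, 5 and 7 did so, against 13.6%, 11.9% and 11.6% of all Myf5 peaks. A difference of the flank from the lists or from the cluster was not tested. The 400 kb below the window held 2 MyoD and 2 Myf5 peaks, with 9, 3 and 4 H4Ac peaks in cells with MyoD, Myf5 and GFP.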
